A study of Mus musculus with 6 samples.

Results

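The genes described here are the 4 phospholipases C beta (Plcb1, Plcb2, Plcb3 and Plcb4), 3 alpha subunits of the Gq class (Gnaq, Gna11 and Gna14), 2 receptors for inositol trisphosphate (Itpr1 and Itpr2) and Prkca, the alpha form of protein kinase C. They were picked by symbol, 10 genes among the 23282 entries of the count tables, and all 10 were found. Forebrain hemispheres of male C57BL/6J mice, wild type and 8 to 10 weeks old, were profiled by QuantSeq, an RNA-Seq method that sequences 1 fragment near the 3′ end of each polyadenylated transcript. The mice of the NCD group were given normal chow and those of the HFD group a diet with 60% of its calories as fat, both for 10 days, with 3 libraries for each diet. Olfactory bulbs and cerebellum had been taken off before the forebrain was divided, and both diets share strain, genotype, sex and age. The sources do not say whether each library is 1 animal, so p-values measure the spread between these libraries.

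Gq is the G protein through which many receptors for serotonin, glutamate, acetylcholine, noradrenaline and neuropeptides act. Its active alpha subunit switches on phospholipase C beta, which cuts phosphatidylinositol bisphosphate in the membrane into diacylglycerol and inositol trisphosphate (IP3). IP3 opens its receptor on the endoplasmic reticulum and lets calcium into the cytoplasm, while diacylglycerol together with calcium activates the conventional protein kinases C. In forebrain neurons the route is known for slow excitation through metabotropic glutamate and muscarinic receptors, for long-term depression and for endocannabinoid release.

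The libraries held between 6842785 and 9689372 counts. Levels are given in CPM, the read count divided by the library size in megareads, with library sizes scaled by TMM, edgeR's trimmed mean of M-values, and 3 counts, taken as the floor, correspond to between 0.316 and 0.431 CPM. The floor covers counting error only. Of the 10 genes, 8 were among the 13771 that passed edgeR's filter on low counts, and Plcb2 and Gna14 did not. HFD replicate 3 stood apart from the other libraries. Its summed CPM over 5 anterior pituitary markers was 1258 against 1.75 to 8.72 elsewhere, and over 7 hypothalamic markers it was 15.9 against 67.3 to 109. Its median absolute log2 difference from the other libraries of its diet was 0.258, against 0.179 to 0.209 for the rest. Over the 6 libraries, the 5 cortical and hippocampal excitatory neuron markers summed to between 712 and 844 CPM, and 5 cerebellar markers to between 31.4 and 46.2 CPM.

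After 10 days of HFD the levels of this signalling core were close to those on chow. By edgeR's quasi-likelihood test, 0 of the 8 genes tested had an unadjusted p under 0.05, where 3.68% of all genes tested did (1.71% higher and 1.98% lower on HFD). With a change of at least 1.5-fold as well, 0 of 8 remained, against 1.28% of all genes, and 0 passed after Benjamini-Hochberg adjustment, as for all 13771 genes. DESeq2 and limma on quantile-normalized values also gave 0 of 8 at an unadjusted p under 0.05. In 0 of the 8 did the libraries of the diets stand apart without overlap, a pattern seen in 8.81% of all genes tested (4.31% with HFD higher and 4.49% with HFD lower). The median log2 fold change (HFD over NCD) of the 8 was -0.001, beside -0.002 for all genes tested. The 95% interval of the fold change lay within 1.5-fold in either direction for 7 of the 8, against 62.5% of all genes tested, and Plcb3, with the fewest counts of the 8, was the exception. Those 7 were also well counted, at the 60.6th to 97.4th percentile of all tested genes in mean CPM.

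**Figure D1:**
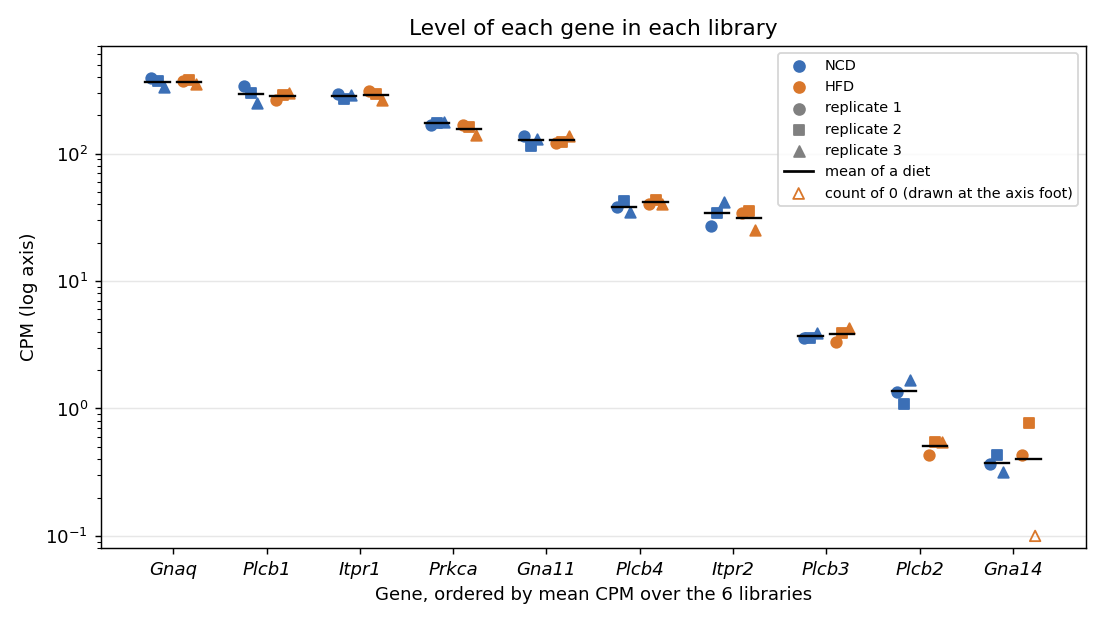
Level of each gene in each library, in CPM on a log axis, with NCD in blue, HFD in orange, a symbol for each replicate number and a black bar at the mean of a diet. The symbols of the diets overlap for 9 of the 10 genes, and the 3 HFD symbols of Plcb2 lie below its 3 NCD symbols. The open triangle marks a count of 0.

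Gnaq encodes the alpha subunit after which the class is named and lies at chr19:16132831-16387463 on the plus strand (GRCm38, the assembly of mm10). It was the most counted gene of the 10. In NCD the libraries had 391.8, 369 and 333 CPM, and in HFD 373, 375 and 349 CPM. The ranges of the diets coincide, with means of 365 ± 29.5 (SD, n = 3) and 366 ± 14.5 CPM (SD, n = 3). The log2 fold change was 0.00 with an SE of 0.10 (95% interval -0.21 to 0.22; edgeR adjusted p = 0.999).

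Gna11, on chr10:81528724-81545190 (minus strand), encodes the close relative that couples to the same receptors and activates the same phospholipases. Its NCD libraries had 139, 116 and 130 CPM and its HFD libraries 121, 124 and 138 CPM, so that the lowest and the highest value were both in NCD. Its log2 fold change was -0.01 with an SE of 0.11 (interval -0.24 to 0.23; edgeR adjusted p = 0.999).

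Gna14, at chr19:16435762-16610820, starts 48.3 kb beyond the end of Gnaq on the same strand, a neighbour in the genome but far from it in level. It had 3, 4 and 3 reads in NCD and 3, 7 and 0 reads in HFD. These counts are at or close to the floor of 3 reads, and the 0 in HFD replicate 3 allows up to 0.412 CPM. The interval of its log2 fold change in the fit without a filter ran from -2.03 to 2.31, so a difference between the diets was not detectable at this depth.

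The proportions within the Gq class were steady. Gnaq made up 73.8%, 76.0% and 71.8% of the summed Gnaq, Gna11 and Gna14 counts in NCD and 75.4%, 75.04% and 71.6% in HFD. The means were 73.9 ± 2.11% and 74.0 ± 2.10% (SD, n = 3 each), and the difference of 0.145 percentage points was smaller than either SD (two-sided exact permutation test of the diet labels, 20 arrangements, p = 1). Of the 3 proportions reported here the smallest exact p was 0.5 (0.8 after Benjamini-Hochberg adjustment over the 4 computed), and 3 libraries against 3 cannot give a p under 0.1.

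Among the phospholipases C beta, Plcb1 is the form most used by cortical and hippocampal neurons and lies at chr2:134786067-135475258 (plus strand). Its libraries had 337, 300 and 250 CPM in NCD and 265, 287 and 301 CPM in HFD. NCD held both the highest and the lowest library, and its SD of 43.6 CPM around a mean of 296 (n = 3) exceeded the difference from the HFD mean of 284 ± 18.03 CPM (SD, n = 3). This put the log2 fold change at -0.06 with an SE of 0.12 (interval -0.30 to 0.19; edgeR adjusted p = 0.979).

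Plcb4, best known for its role with metabotropic glutamate receptors in the cerebellum and thalamus, lies 184 kb downstream of Plcb1 on the same strand, at chr2:135659011-136014593. It had 38.1, 42.2 and 34.9 CPM in NCD and 40.4, 43.6 and 40.1 CPM in HFD. The HFD libraries lay in a narrow band that reached just above the NCD range, and the log2 fold change was 0.11 with an SE of 0.12 (interval -0.15 to 0.37; edgeR adjusted p = 0.979). The sum over 6 thalamic markers ran from 485 to 577 CPM in NCD and from 485 to 549 CPM in HFD.

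Plcb3, a more widely expressed form on chr19:6952325-6976470 (minus strand), had far fewer reads than Plcb1 or Plcb4. Its counts were 29, 33 and 37 in NCD and 23, 36 and 31 in HFD, which gave 3.67 ± 0.190 and 3.83 ± 0.482 CPM (SD, n = 3 each). The log2 fold change was 0.06 with an SE of 0.30, and its interval of -0.58 to 0.70 was the widest of the 8 genes tested (edgeR adjusted p = 0.991).

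Plcb2, the phospholipase of blood cells and taste receptor cells, on chr2:118707517-118728438 (minus strand), had the only groups without overlap. NCD libraries held 11, 10 and 16 reads and HFD libraries 3, 5 and 4. In CPM this was 1.36, 1.08 and 1.68 against 0.431, 0.546 and 0.549, with every HFD library below every NCD library and HFD replicate 1 at the floor. Without the filter on low counts, 8.14% of the 18936 genes with a count had groups without overlap, and 4.09% had them with HFD lower. Plcb2 is 1 of the 2 genes of the set below the filter.

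The difference in Plcb2 did not pass the test. Its log2 fold change in the fit without a filter was -1.40 with an SE of 0.73 (interval -2.83 to 0.03), the unadjusted p was 0.0551 where 4.76% of genes were under 0.05, and the edgeR adjusted p was 0.941 (0.891 to 0.9999 over the alternatives), where 0.121% of genes were under 0.05 after adjustment. The 37 reads of NCD and 12 of HFD limit what can be said of it. Leaving out each library in turn gave log2 fold changes between -1.55 and -1.22, with p between 0.0572 and 0.141, and without HFD replicate 3 the value was -1.45. Quantile normalization with limma gave -0.62 (SE 0.14) on a log2(CPM + 1) scale with an unadjusted p of 0.0027 and an adjusted p of 0.943. Adding 1 CPM shrinks both the difference and the spread of a gene at this level. The share of all genes under 0.05 in that fit was not taken.

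Cells of the blood lineage express Plcb2, and their markers are given beside it with those of other sources. The 6 microglial and macrophage markers summed to between 318 and 334 CPM in NCD and between 328 and 348 CPM in HFD, with 5 of the 6 higher in mean on HFD. The 8 leukocyte markers summed to between 7.54 and 8.13 CPM in NCD and between 9.06 and 14.0 CPM in HFD, 5 of them higher in mean. The leukocyte markers did not move together. S100a8, S100a9 and Ptprc made up most of the sum, and S100a9 and Ptprc were higher in every HFD library. Ngp (0.631 to 1.29 CPM in NCD, 0.109 to 0.412 in HFD) and Ltf (0.108 to 0.493 CPM in NCD, 0 in each HFD library) were lower in every HFD library, as was Plcb2. Ltf, and Ngp on HFD, were near or under the floor of 3 reads. Among the other granulocyte genes, S100a8 (1.62 to 1.85 CPM in NCD, 1.58 to 4.25 in HFD) and Camp (0.105 to 0.431 CPM in NCD, 0 to 0.823 in HFD) overlapped between the diets. Liver transcripts shared the direction of Plcb2 in the diet means. The 6 liver markers, all lower in mean on HFD, summed to between 10.4 and 51.7 CPM in NCD and between 5.76 and 11.9 CPM in HFD, with overlap between the diets. In NCD replicates 1, 2 and 3, Plcb2 had 11, 10 and 16 reads, and the liver sums were 27.7, 51.7 and 10.4 CPM. So few reads in 3 libraries cannot show whether Plcb2 and the liver transcripts vary together. All 5 of the liver markers that passed the filter had an unadjusted p under 0.05 by edgeR, where 3.68% of all genes tested did (1.98% lower on HFD). As for all 13771 genes, 0 passed after adjustment. The liver values varied widely within NCD, with Alb between 3.89 and 26.8 CPM. Of the 4 taste and tuft cell markers, Trpm5 and Gnat3 were at 0 in every library, and Tas1r3 carried nearly all of a sum between 22.4 and 26.9 CPM. In bulk tissue, fewer cells of a type and less RNA per cell cannot be told apart, and the part of such cells or transcripts in the Plcb2 counts was not tested.

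**Figure D2:**
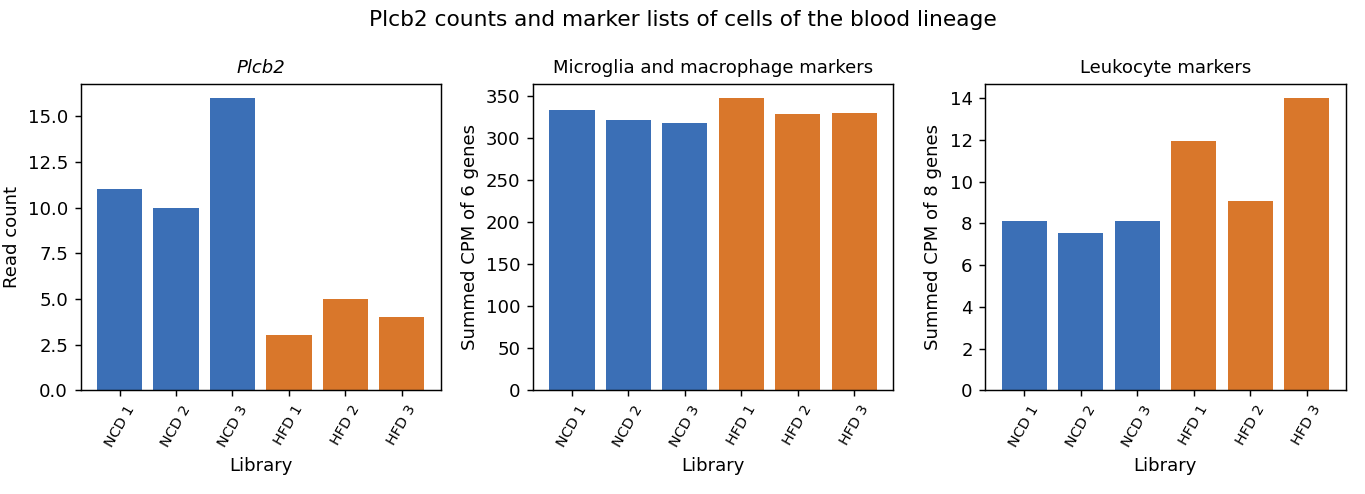
Plcb2 read counts (left), summed CPM of 6 microglial and macrophage markers (middle) and summed CPM of 8 leukocyte markers (right) in each library, NCD in blue and HFD in orange. Plcb2 counts were 10 to 16 in NCD and 3 to 5 in HFD, and the leukocyte sum was 7.54 to 8.13 CPM in NCD and 9.06 to 14.0 CPM in HFD, a sum in which Ngp and Ltf were lower on HFD and S100a9 and Ptprc higher.

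Plcb1 took most of the family's reads on both diets. It held 88.7%, 86.5% and 86.1% of the summed Plcb1 to Plcb4 counts in NCD and 85.7%, 85.6% and 87.0% in HFD. The mean difference of -0.95 percentage points was smaller than the SD of 1.40 in NCD (exact permutation test, two-sided, p = 0.5). Plcb4 held 11.4% on average in NCD and 12.6% in HFD, and Plcb3 held 1.10% and 1.16%. The small portion of Plcb2 was between 0.311% and 0.579% in NCD and between 0.139% and 0.163% in HFD, the same separation as in its counts.

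Of the IP3 receptors, Itpr1 is the main neuronal form, on chr6:108213096-108551109 (plus strand). Its libraries had 295, 270 and 289 CPM in NCD and 309, 294 and 263 CPM in HFD. HFD contained both ends of the range, its lowest value in HFD replicate 3. The log2 fold change was 0.02 with an SE of 0.10 (interval -0.20 to 0.24; edgeR adjusted p = 0.993), and 0.08 without that library.

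Itpr2, the form typical of astrocytes, lies at chr6:146108299-146502223 (minus strand). It varied most among the well-counted genes, with 27.0, 34.1 and 42.1 CPM in NCD and 34.1, 35.2 and 25.1 CPM in HFD. The highest library exceeded the lowest by more than 1.5-fold, and the values of the diets were interleaved. Its log2 fold change was -0.13 with an SE of 0.17 (interval -0.49 to 0.23; edgeR adjusted p = 0.979), and 0.01 without HFD replicate 3, the lowest library. The 5 astrocyte markers summed to between 867 and 944 CPM in NCD and between 851 and 922 CPM in HFD.

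Itpr1 accounted for 91.2%, 88.4% and 87.1% of the summed IP3 receptor counts in NCD and 89.7%, 88.7% and 90.6% in HFD. The mean difference was 0.803 percentage points, within the SD of 2.09 in NCD (exact permutation test, two-sided, p = 0.6). Itpr2 supplied 10.7% on average in NCD and 9.73% in HFD, and the remaining Itpr3, the form of secretory epithelia, 0.402% and 0.595%.

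Prkca, on chr11:107933387-108343928 (minus strand), encodes a conventional protein kinase C that responds to both calcium and diacylglycerol. It had 167, 173 and 179 CPM in NCD and 168, 163 and 140 CPM in HFD. The diets overlapped only through HFD replicate 1, which lay just above NCD replicate 1, and HFD replicate 3 was the lowest by a clear margin. The means were 173 ± 5.75 and 157 ± 14.9 CPM (SD, n = 3 each), with a log2 fold change of -0.14 and an SE of 0.11 (interval -0.37 to 0.09; edgeR adjusted p = 0.979). Without HFD replicate 3 the log2 fold change was -0.06, with an interval of -0.25 to 0.12. In that library the 3 inhibitory neuron markers summed to 469 CPM, against 584 to 657 CPM in the other 5, and the part of this in the Prkca value was not tested.

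**Figure D3:**
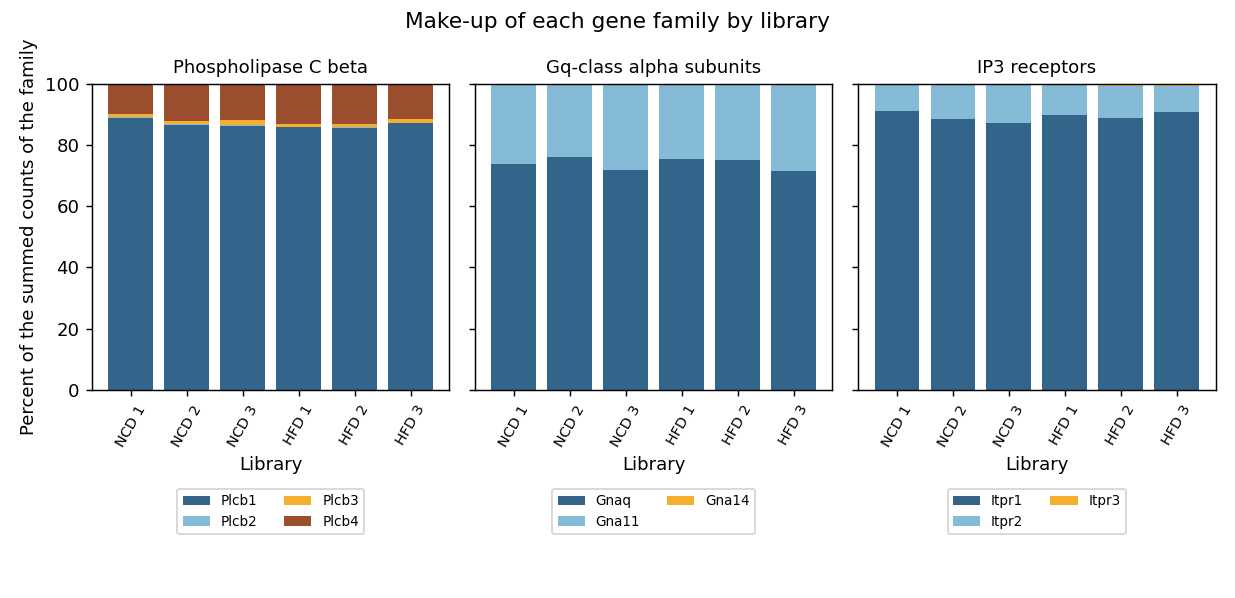
Percent of the summed counts of each family taken by each gene, for 3 families and the 6 libraries. Plcb1, Gnaq and Itpr1 lead their families in every library, with Plcb1 at 85.6% to 88.7% and Gnaq at 71.6% to 76.0%.

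Because QuantSeq counts 1 fragment for a transcript, CPM was read as a measure of transcript number and the order of levels was set without dividing by length. Over the 6 libraries the mean was 365 CPM for Gnaq, 290 for Plcb1, 287 for Itpr1, 165 for Prkca, 128 for Gna11, 39.9 for Plcb4, 32.9 for Itpr2, 3.75 for Plcb3, 0.940 for Plcb2 and 0.385 for Gna14. Neighbours in this order whose ranges overlapped were Gnaq and Plcb1, Plcb1 and Itpr1, Plcb4 and Itpr2, and Plcb2 and Gna14. Within a library, however, Gnaq was above Plcb1 in 6 of 6, Plcb1 above Itpr1 in 3 of 6, Plcb4 above Itpr2 in 5 of 6 and Plcb2 above Gna14 in 4 of 6. Itpr1, Prkca and Gna11 were each apart from the next gene down.

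Per kilobase of annotated exon, Gnaq was still first at 59.0 CPM per kb and Gna11 came second at 31.2, ahead of Plcb1 at 26.1, Prkca at 18.3 and Itpr1 at 15.6. The ranks of 3 genes differed from the order in CPM. The less abundant genes kept their places, from Plcb4 at 4.45 CPM per kb through Itpr2 at 2.23 and Plcb3 at 0.539 to Plcb2 at 0.143 and Gna14 at 0.112.

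Exact sequence shared with other annotated transcripts was looked for at the 3′ ends. Near matches, unannotated sequence and reads outside these ends were not checked. Of the last 500 bases of each annotated coding transcript, cut into stretches of 50 bases, 0 occurred in another gene for 9 of the 10 genes, and 7.30% did for Itpr1, all in Gm44101. Exons of another gene on the opposite strand overlapped Itpr1 (181 bases of Gm44101 and 108 of Gm44040), Plcb1 (178 bases of 9630028H03Rik), Prkca (30 bases of Apoh) and Plcb3 (22 bases of Ppp1r14b). Whether the counting used strand is not given in the sources used here, so reads in those stretches cannot be told apart.

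**Figure D4:**
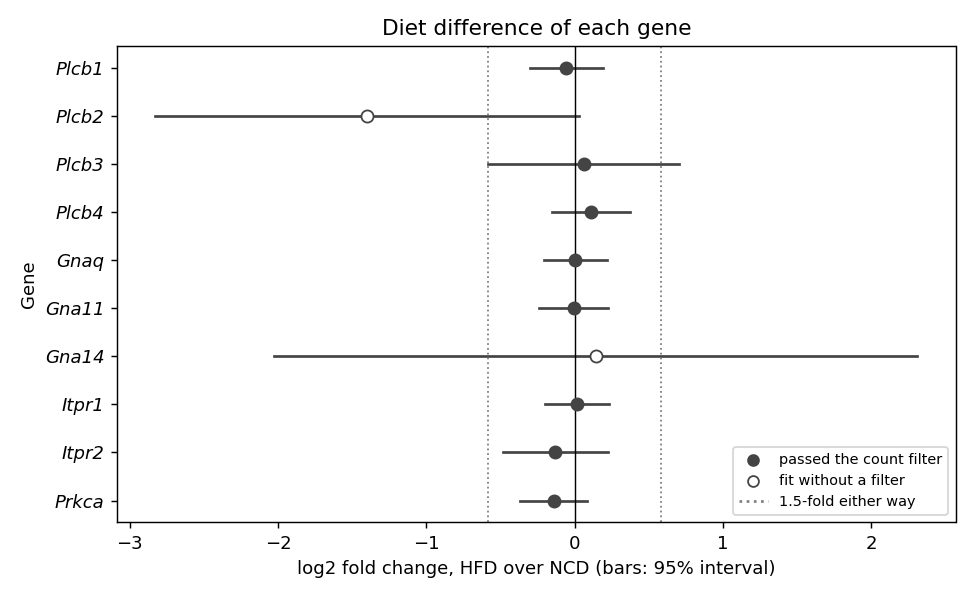
Log2 fold change of each gene, HFD over NCD, with its 95% interval, filled for genes that passed the count filter and open for the fit without a filter. Dotted lines mark 1.5-fold either way. Every interval includes 0, and only those of Plcb2, Plcb3 and Gna14 reach past the dotted lines.

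The wider pathway was read from a list of 162 genes in 11 role groups, of which 143 passed the filter. At an unadjusted p under 0.05, 2 of the 143 were higher on HFD and 0 lower, beside 1.71% and 1.98% of all genes tested, and 0 passed after adjustment. The median log2 fold change was -0.04, with 92 of the 143 below 0 (64.3%, beside 50.6% of all genes tested). Without HFD replicate 3 the portion below 0 was 57.5% of 146 genes. Libraries of the diets did not overlap for 3 genes that were higher and 9 that were lower, 8.39% in all, close to the 8.81% over all genes.

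Prkd3, a protein kinase D that is activated by diacylglycerol and by protein kinase C, was the clearer of the 2. It lies at chr17:78949405-79020816 (minus strand). NCD libraries had 69, 104 and 102 reads and HFD libraries 105, 150 and 133, or 8.504, 11.2 and 10.7 CPM against 15.1, 16.4 and 18.3 CPM. All HFD libraries were above all NCD libraries in CPM. The log2 fold change was 0.70 with an SE of 0.18 (interval 0.33 to 1.08), with an unadjusted p of 0.0011 and an edgeR adjusted p of 0.979 (0.200 to 0.9999 over the alternatives).

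Homer1, the scaffold that links group I metabotropic glutamate receptors to IP3 receptors, was the other. Its libraries had 136, 135 and 125 CPM in NCD and 148, 141 and 184 CPM in HFD, all 3 HFD values above the NCD ones. HFD replicate 3 was far above its mates. The log2 fold change was 0.26 with an SE of 0.12 (edgeR adjusted p = 0.979, unadjusted 0.0444), and 0.13 with HFD replicate 3 left out (unadjusted p = 0.170). The unadjusted p was also above 0.05 without each NCD library in turn, at 0.0730, 0.0691 and 0.118, with library size alone at 0.0624, and with quantile normalization at 0.111.

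By role, the 25 Gq-coupled receptors tested lay around a median of -0.07 on the log2 scale. Of these, 0 had an unadjusted p under 0.05, where 3.68% of all genes tested did. Grm5, the metabotropic glutamate receptor with the highest level among them, had 342 ± 18.7 CPM in NCD and 341 ± 13.7 in HFD (SD, n = 3 each). Grpr, the receptor for gastrin-releasing peptide, had the lowest log2 fold change of the 143 pathway genes past the filter at -0.91 (SE 0.59, edgeR adjusted p = 0.979), from 10, 11 and 18 reads in NCD and 7, 10 and 1 in HFD. Only its NCD libraries were high enough for the filter, so its place as the lowest is in part set by that filter. In this gene HFD replicate 3 was again the lowest library, and without it the value was -0.45.

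Among receptors under the filter, Htr2a, the Gq-coupled serotonin receptor, had 1, 8 and 7 reads in NCD and 8, 25 and 22 in HFD (log2 fold change 1.95, SE 0.61; edgeR adjusted p = 0.458 without a filter). Its unadjusted p in that fit was 0.0016 (0.00054 to 0.0158 over the alternatives), where 4.76% of genes with a count were under 0.05. Nmbr, the neuromedin B receptor, had 2, 1 and 0 reads in NCD and 3, 12 and 8 in HFD, with an edgeR adjusted p of 0.860 (unadjusted 0.0106, and 0.0686 without HFD replicate 2). For both the HFD libraries were above the NCD libraries in CPM, though Nmbr in NCD was under the floor of 3 reads. They are 2 of 15 receptors under the filter, 14 of which had a count, and were named with their earlier results known. The other 12 with a count overlapped between the diets, 5 with a log2 fold change above 0 and 7 below, from -1.84 to 1.68, and 4.05% of all genes with a count had groups without overlap and HFD higher.

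Beyond the receptors, 0 of the 11 other G protein subunits, 0 of the 13 Gq regulators and 0 of the 10 other phospholipases C had an unadjusted p under 0.05. Over all genes tested the share was 3.68%. The most counted of each group were close between the diets. Gnb1, a beta subunit, had 906 CPM in NCD and 923 CPM in HFD. Rgs4, which speeds the shut-off of Gq, had 602 and 591 CPM. Plcl2, a phospholipase C-like protein without catalytic activity, had 43.9 and 46.1 CPM.

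Of the 143 pathway genes past the filter, the largest positive log2 fold change was that of Gna15, an alpha subunit of the Gq class found mainly in blood cells, at 1.09 with an SE of 0.64 (edgeR adjusted p = 0.979). It rested on 7, 11 and 1 reads in NCD against 17, 9 and 9 in HFD, which overlap in CPM, and without HFD replicate 1 it was 0.62, under the 0.76 of Prkd3. The lowest of the 10 other phospholipases C was Plcd1 at -0.50 (SE 0.31, interval -1.15 to 0.15), with 4.67 CPM in NCD and 3.28 CPM in HFD. Gng4, a gamma subunit, was at -0.38 (SE 0.23, interval -0.86 to 0.10). NCD replicate 2 alone, with 765 reads of Gng4 against 314 and 375 in the other NCD libraries, set that sign, and without it the value was 0.08.

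In the lipid and calcium arms, 1 of the 16 genes of IP3 receptor partners and IP3 breakdown was at an unadjusted p under 0.05 (Homer1) and 1 of the 12 protein kinase C substrates (Prkd3). None of the 14 genes of phosphoinositide supply, the 8 other protein kinases C, the 12 diacylglycerol kinases and lipases, the 19 of store calcium handling or the 3 Gq-bound exchange factors was. The share over all genes tested was 3.68%, and groups of this size are too small to be set apart from it. The 19 calcium handling genes had a median log2 fold change of -0.14, with 12 below 0, where 50.6% of all genes tested were. Itpr3 had 13, 13 and 8 reads in NCD and 10, 20 and 15 in HFD, for a log2 fold change of 0.58 (SE 0.45, interval -0.38 to 1.54).

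The most counted gene of each of these groups differed little. Nrgn, which holds calmodulin until protein kinase C phosphorylates it, had 4441 ± 441 CPM in NCD and 4104 ± 150 CPM in HFD (SD, n = 3 each), and Prkcb, the beta form of protein kinase C, 2172 ± 166 and 2049 ± 92.5. Atp2b1, a plasma membrane calcium pump, had 1510 and 1521 CPM. Kalrn, an exchange factor for small GTPases, had 335 and 329 CPM, Cds2, which makes the precursor of phosphatidylinositol, 235 and 223, and Dgkz, a diacylglycerol kinase, 217 and 211. Ahcyl1, which competes with IP3 for its receptor, had 255 ± 5.08 CPM in NCD and 269 ± 9.71 in HFD without overlap, for a log2 fold change of 0.08 (interval -0.13 to 0.28).

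**Figure D5:**
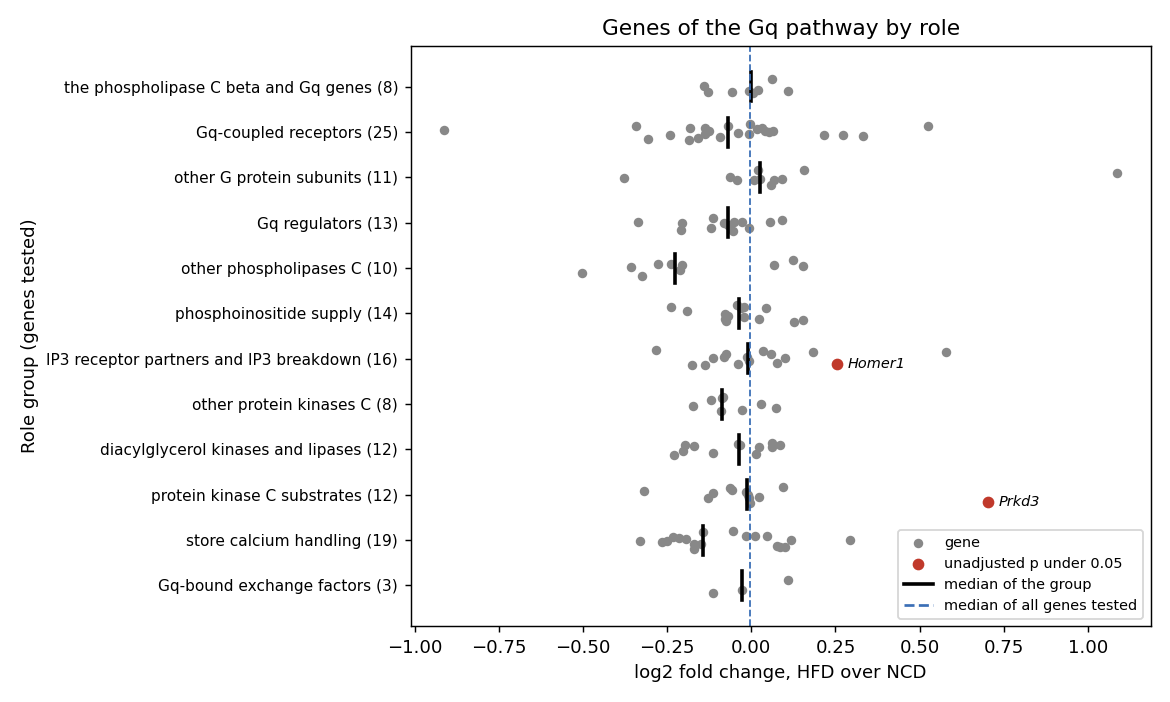
Log2 fold change, HFD over NCD, of the 8 genes of the set that passed the count filter (top row) and of the 143 other pathway genes by role, with a black bar at the median of each group, a dashed line at the median of all genes tested and red points for an unadjusted p under 0.05. The 2 red points are Homer1 at 0.26 and Prkd3 at 0.70, and most other points lie within 0.50 of 0.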

How the data were processed

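Per the labels and the study's methods, total RNA of 6 forebrain samples was made into QuantSeq 3′ libraries and sequenced as single-end reads of 75 bases. The authors trimmed adaptors, placed reads on mm10 by Bowtie2, took counts per gene from unique and multiple alignments by bedtools, and they deposited 1 table of whole-number read counts for each library, without normalization. The annotation used, the strand setting and the tool versions are not given in the sources used here, and a multiply aligned read can count for more than 1 gene.

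Fold changes were fitted by edgeR 4.0.16 under R 4.3.3. filterByExpr (minimum count 10, minimum total 15) kept 13771 of 18936 genes with a count, and libraries were scaled with TMM. HFD was compared with NCD by glmQLFit and glmQLFTest, two-sided, with Benjamini-Hochberg adjustment over all genes fitted. Genes under the filter were taken from the same fit without it. SE was the size of the log2 fold change over the root of the F statistic, and 95% intervals used the test's degrees of freedom. The common biological coefficient of variation was 0.126. Proportions within families were compared by exact permutation over 20 splits, for which the smallest p is 0.1. The exact tests and summaries were run in Python 3.11.15 with SciPy 1.17.1.

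Positions and exon lengths are from GENCODE for GRCm38. Of the 162 pathway symbols, 162 were found, 3 under older names. Alternatives were DESeq2 1.42.0, limma 3.58.1 on quantile-normalized log2(CPM + 1), other scalings, filters and dispersion settings, a replicate block, and leaving out each library. The fits were tested on simulated data. Pathway genes were named if their unadjusted p was under 0.05, if they had the highest mean CPM of a role group, or if they were among the 3 highest or 3 lowest log2 fold changes, with Htr2a and Nmbr added as receptors. The genes of the set and all lists were chosen with earlier results of these data known. Libraries of the same diet differed beyond counting noise (chi-square per degree of freedom 3.58 to 17.1). Of the 4 proportions computed, 1 is not reported here.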

Additional observations from a re-analysis of the deposited data

How the results depend on the processing

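The count of genes of the set at an unadjusted p under 0.05 was 0 in each of the 15 alternatives, taken over the 8 genes that passed the main filter. Of genes of the set under the filter, 1 was called (Plcb2) with quantile normalization and limma, and 0 otherwise. Prkd3 kept an unadjusted p under 0.05 in 15 of 15 alternatives, and Homer1 in 8 of 15. Pathway genes called were 2, and 1 with library size alone, 5 without a count filter, and 2 to 5 with a library left out, 4 without NCD replicate 1 and 5 without NCD replicate 3. Over all genes, 507 were called, 902 without a filter and 411 to 773 with a library left out. Genes at an adjusted p under 0.05 were 0, 2 with DESeq2, 23 without a filter and 0 to 3 with a library left out.

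Log2 fold changes near 0 changed sign. Gnaq was at -0.0148 with quantile normalization and -0.0162 with library size alone, and Itpr1 at -0.00719 with quantile normalization. With a library left out, Plcb1 ran from -0.163 to 0.0481, Gna11 from -0.0743 to 0.0526, Gnaq from -0.0565 to 0.0590, Itpr1 from -0.0319 to 0.0816, Itpr2 from -0.274 to 0.0427, Plcb3 from -0.0163 to 0.152, Gna14 from -0.77 to 0.69 and Gng4 from -0.563 to 0.0766. The Gnaq proportion differed by -0.895 to 1.35 percentage points, that of Itpr1 by -0.088 to 1.95 and that of Plcb1 by -1.46 to -0.149. Per kilobase of exon, 3 ranks of level changed. The cause of these changes was not tested.

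Deviations from the diet mean gave no sign that equal replicate numbers pair the libraries. Same-number deviations correlated at -0.03, 0.05 and -0.06, and 1 of the 3 NCD libraries correlated best with its own number. Whether libraries of equal number share a batch or form pairs cannot be told from these correlations, and the labels do not say. In both diets replicate 3 differed most from its mates (chi-square per degree of freedom 9.74 to 17.1, against 3.58 and 3.96 between replicates 1 and 2). In the study's read quality reports, GC content in whole percents was equal between the diets for replicate 1 and for replicate 2. That of HFD replicate 3 was as near to NCD replicate 1 as to NCD replicate 3. With the replicate block, 1 pathway gene was called (Prkd3), 0 genes of the set, and Gna14 was at -0.12. Depth limits Plcb2, Gna14 and Plcb3.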
